A study of Danio rerio with 26 samples.

Results

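The comparison described here sets the dorsal subventricular zone (SVZ) of the adult zebrafish telencephalon 2 days after a lesion against the same tissue without a lesion. It uses 6 of the 26 arrays of the study, 3 at day 2 and 3 unlesioned, and covers all 19260 genes that could be named, each read from a single probe set. All fish were 3 to 6 months old and carried the transgene Tg(gfap:gfp)mi2001, which places green fluorescent protein under the promoter of gfap, a gene of radial glia, so the unlesioned fish carried it too. The lesioned group had a stab wound by the design text and tissue label, whereas the treatment text describes cerebroventricular microinjection through a hole made in the skull. The unlesioned group is labelled only as being without the wound, and no sham operation is named. The other arrays give side by side values, and they also enter the model that sets the variance of each gene, and so its p-value. They hold the dorsal SVZ at day 7 (3 arrays) and the dorsal parenchyma at day 2 (3), day 7 (3) and unlesioned (2). A medial neurogenic zone was measured at day 2 (4), day 7 (3) and unlesioned (2). All are from the same line and age range. The arrays are labelled as biological replicates, without a number of animals for each, so the p-values measure the spread between these arrays.

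The subventricular zone of the fish telencephalon is a thin layer along the ventricle. It holds radial glia that act as neural stem cells, dividing progenitors, newborn neurons, ependymal and vascular cells, and resident microglia. Microglia and invading macrophages take up dead cells and debris after a wound, break them down in lysosomes and handle the lipid that this releases. Brain cells make most of their own cholesterol from acetyl-CoA through mevalonate and squalene. When a cell has enough sterol, the sensor protein INSIG holds the transcription factor SREBP2 inactive and the genes of that pathway are transcribed less.

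Levels are given as log2 intensity after normalization across arrays, so a difference of 1 is a doubling or halving, and a level cannot be compared between genes. A gene was called when its limma p-value, adjusted by Benjamini-Hochberg over all 19260 genes, was under 0.05. The median over the whole table was 3.092, and a level below that value was not shown to be above background. The radial glia genes gfap (7.02 to 7.94 on the 6 arrays) and fabp7a (11.20 to 11.48) were far above it. So was the neuronal vesicle gene vamp2 (10.24 to 10.72), and RNA of neurons was thus measured beside that of radial glia. These levels do not say whether the neurons lay within the ventricular layer. The 6 arrays correlated at 0.9397 to 0.9659 over the genes whose mean level was above that of the median gene.

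Unlesioned replicate 2 stood apart from the other arrays of this comparison in genes of the pineal gland and photoreceptors. The pineal opsin gene exorh was at 10.50 on that array and at 10.01 on day 7 replicate 2, against 3.07 to 4.70 on the other 24 arrays of the study. The transducin subunit gene gngt1 was at 10.85 and 9.85 on these arrays and at 2.28 to 4.69 elsewhere. The melatonin enzyme gene aanat2 was at 8.04 and 5.81, against 2.62 to 3.88. These 3 genes were picked after their values had been seen, and none of the day 2 arrays carried them. The mean level of 36 pineal and photoreceptor genes was 3.12 to 3.14 at day 2 and 3.46, 5.97 and 3.18 on the unlesioned arrays. Of the 52 calls described below, 22 were kept without unlesioned replicate 2. Values without it are given for the pigment and photoreceptor genes and for some of the lists.

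By day 2 a small set of genes had changed, 52 in all or 0.270% of those tested. Of these, 35 were higher (0.182%) and 17 lower (0.0883%), and 1309 genes had an unadjusted p under 0.05. The rises ran from 1.93-fold to 6.22-fold with a median log2 fold change of 1.48, and the falls from 2.12-fold to 6.16-fold with a median of -1.67. On the 36 lists of genes by role were 22 of the 35 rises and 14 of the 17 falls, not counting the pineal and photoreceptor list. These lists held 1183 measured names, counting repeats between lists, beside 19260 genes tested. They were chosen with earlier results of these data known, so the counts describe the called genes and are no test. The rises were led by genes of phagocytes, and the falls by genes of cholesterol synthesis. The day 2 and unlesioned arrays did not overlap for any of the 52, which held for 2706 of all genes (14.0%). The median log2 fold change of all genes was 0.02, and 52.8% had a positive sign.

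**Figure D1:**
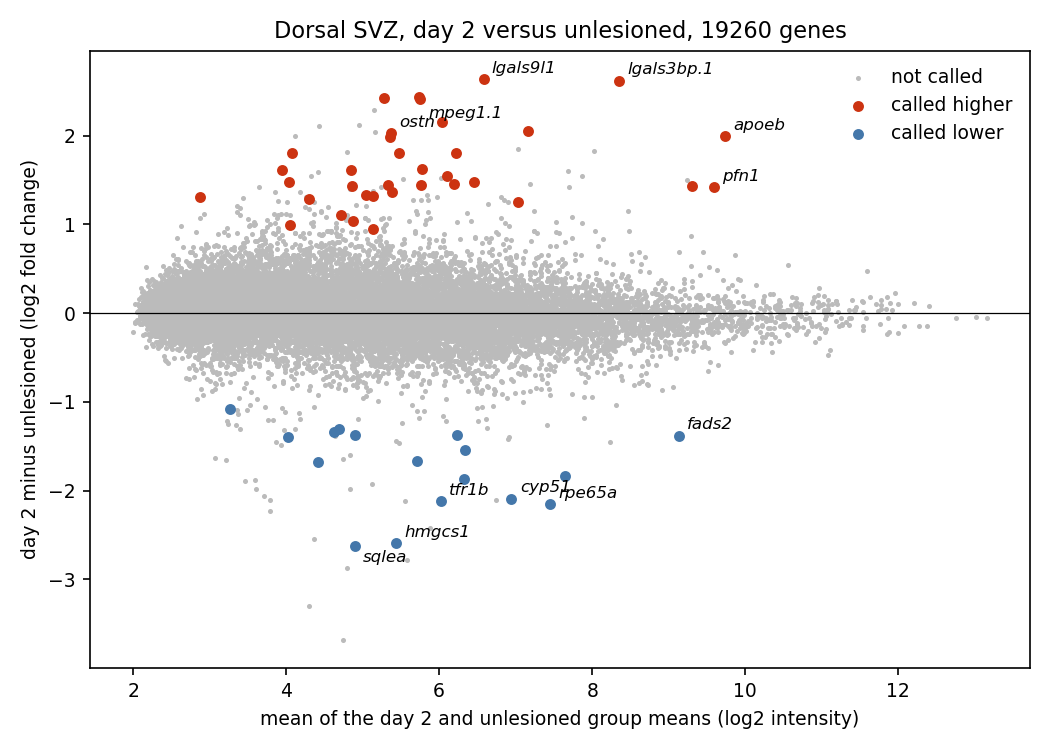
Log2 fold change (day 2 minus unlesioned, vertical axis) against the mean of both group means (log2 intensity, horizontal axis) for each of the 19260 genes. Red points are the 35 genes called higher, blue points the 17 called lower and grey points the rest. Several grey points lie below -2 without being called, among them genes that were high on unlesioned replicate 2 alone.

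The number of calls depended on single arrays. It was 14 without day 2 replicate 3, 16 without unlesioned replicate 3, 23 without unlesioned replicate 2 and 30 without day 2 replicate 1. The same 11 genes stayed called whichever array was left out, namely mpeg1.1, lgals3bp.1, arpc1b, pfn1 and ostn among the rises and sqlea, hmgcs1, cyp51, sc5d, msmo1 and hmgcra among the falls. The other 41 lost their call without 1 or more arrays. None of the 52 changed sign in any alternative. Their day 2 and unlesioned arrays did not overlap, so leaving out an array could not turn a sign.

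Genes that mark microglia and macrophages were the largest group among the rises. Of 34 measured members, 9 rose, beside 0.182% of all genes, none fell and 25 were not called. A positive sign was found in 31, beside 52.8% of all genes. The list median was 0.87 against 0.02 for all genes. The groups did not overlap for 22 of the 34 (64.7%), beside 14.0% of all genes. The mean level of the list was 5.48, 5.32 and 5.90 at day 2 and 4.72, 4.64 and 4.50 without a lesion, so day 2 replicate 3 was the highest array and replicate 2 the lowest of the lesioned ones. The list median was 0.57 when day 2 replicate 3 was left out. In bulk tissue a larger number of cells of a type and more RNA per cell cannot be told apart.

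The pore-forming protein of macrophages is encoded by mpeg1.1, whose level was 6.62, 7.12 and 7.14 at day 2 and 4.80, 4.36 and 4.47 without a lesion. The gap between the groups was wider than the spread inside either, with a log2 fold change of 2.41 (SE 0.30, 5.32-fold, adjusted p = 0.00022). The lipid carrier apoeb, which phagocytes load with cholesterol, was at 10.76, 10.41 and 11.02 against 8.60, 8.83 and 8.80. It rose 3.97-fold (log2 fold change 1.99, SE 0.32, adjusted p = 0.00464), and a second probe set of the gene gave 1.78. The call of apoeb ended only without day 2 replicate 3 (adjusted p = 0.0571).

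The lysosomal membrane gene laptm5 of blood-derived cells was at 7.84, 7.86 and 8.88 against 6.20, 6.65 and 5.57, a 4.14-fold rise (log2 fold change 2.05, SE 0.44, adjusted p = 0.0423). Its call ended without any of the 6 arrays (adjusted p up to 0.334), while its second probe set had a log2 fold change of 2.46. The actin-binding gene coro1a of leukocytes was at 6.02, 6.15 and 6.98 against 5.12, 4.03 and 4.60, and rose 3.48-fold (log2 fold change 1.80, SE 0.37, adjusted p = 0.0311). The remaining rises of the list were smaller. They were the leukocyte plastin lcp1 (2.93-fold, adjusted p = 0.0266), the phosphatidylserine receptor havcr1 (2.79-fold, adjusted p = 0.035), the chemokine ccl34b.1 (2.70-fold, adjusted p = 0.0106), the receptor for colony stimulating factor csf1ra (2.56-fold, adjusted p = 0.0307) and the amino acid transporter slc7a7 (2.44-fold, adjusted p = 0.0361). The calls of coro1a, lcp1, havcr1, csf1ra and slc7a7 each ended without 4 or more of the arrays, and that of ccl34b.1 without day 2 replicate 3 or unlesioned replicate 3 (adjusted p up to 0.116).

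A few galectin-related and chemokine genes rose as well. The galectin gene lgals9l1 was at 7.44, 7.54 and 8.72 at day 2 and at 5.86, 5.21 and 4.71 without a lesion. That was the largest rise of the comparison, 6.22-fold (log2 fold change 2.64, SE 0.43, adjusted p = 0.00486), and its call ended without day 2 replicate 3 or unlesioned replicate 3 (adjusted p up to 0.0804). The secreted galectin-binding glycoprotein lgals3bp.1 was at 9.52, 9.60 and 9.87 against 7.65, 6.90 and 6.57, a 6.16-fold rise (log2 fold change 2.62, SE 0.33, adjusted p = 0.00022). These were 2 of 13 measured genes on a list of galectins and galectin-binding proteins, and the others were not called. The list median was 0.24, and 0.08 to 0.31 when 1 array was left out. Of the 13, 7 were under the table median in both groups. The median reached 0.87 over all alternatives, which include a fit without the genes of lowest level, so with fewer members. The next in that list, lgals2a, had a log2 fold change of 1.25 (adjusted p = 0.0669).

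The chemokine receptor ccr12a was at 5.92, 6.23 and 7.31 against 3.75, 4.64 and 3.82 and rose 5.34-fold (log2 fold change 2.42, SE 0.44, adjusted p = 0.0135). Its call ended without day 2 replicate 3, unlesioned replicate 1 or unlesioned replicate 3 (adjusted p up to 0.135). The genes ccr12a and ccl34b.1 made 2 of 44 chemokines and their receptors, and the list median of 0.03 was close to that of all genes. Of the 44, 24 were under the table median in both groups, which held for 4933 of all 19260 genes. The inflammatory mediators had no call among 46 genes (limma, 7 at an unadjusted p under 0.05) and a median of 0.08. The cytokine il1b, released early after tissue damage, had a log2 fold change of 0.12 that was not called. Neutrophil genes had no call among 14 (1 unadjusted) with a median of 0.25, and lymphocyte genes none among 23 (2 unadjusted) with a median of 0.06. Of the mediator, neutrophil and lymphocyte genes, 15, 6 and 16 were under the table median in both groups. The lymphocyte list median was 0.04 to 0.15 when 1 array was left out. It reached 0.47 over all alternatives, which include the fit without the genes of lowest level. The lymphocyte factor gata3 had a log2 fold change of -0.07.

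The gene c1ql1, whose protein carries the C1q domain but belongs to no complement cascade, was at 6.46, 7.21 and 7.17 at day 2. On the unlesioned arrays it was at 5.76, 4.46 and 3.35, the widest unlesioned spread among the 12 largest rises. It rose 5.38-fold (log2 fold change 2.43, SE 0.51, adjusted p = 0.0386), and the call ended without 5 of the 6 arrays. It was the single call on a list of 25 complement and C1q genes, whose median was 0.23, and 0.10 without day 2 replicate 3. Of the 25, 14 were under the table median in both groups. The list median was at most 0.30 when 1 array was left out. It reached 0.65 over all alternatives, which include the fit without the genes of lowest level.

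Lysosomal genes rose in small number. Of 37, 3 rose, beside 0.182% of all genes, none fell and 34 were not called. The list had 33 positive members, beside 52.8% of all genes, and a median of 0.37. The protease ctsc, which trims other proteases of immune cells into their active form, was at 6.71, 6.66 and 7.97 against 5.16, 4.92 and 4.81, and rose 4.44-fold (log2 fold change 2.15, SE 0.40, adjusted p = 0.0165). The collagen-degrading protease ctsk was at 4.76, 4.80 and 5.38 against 3.44, 2.96 and 3.16, a 3.48-fold rise (log2 fold change 1.80, SE 0.31, adjusted p = 0.00838). Its unlesioned arrays lay around the table median of 3.092, where the fold is not exact. The carboxypeptidase scpep1 rose 2.72-fold (adjusted p = 0.0234), and the lysosomal nuclease dnase2, which is not on the list and digests the DNA of engulfed cells, 2.78-fold (adjusted p = 0.0266). The calls of ctsc and ctsk ended without day 2 replicate 3, unlesioned replicate 2 or unlesioned replicate 3 (adjusted p up to 0.159 and 0.105).

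Genes that prepare antigen were higher without passing the test in most cases. The thiol reductase ifi30a, which unfolds antigen in lysosomes and is induced by interferon gamma in mammals, was at 6.11, 5.76 and 7.18 against 4.50, 4.68 and 3.93. It rose 3.95-fold (log2 fold change 1.98, SE 0.36, adjusted p = 0.0135), and lost the call without day 2 replicate 3 or unlesioned replicate 3 (adjusted p up to 0.135). On the list of 22 antigen presentation and immunoproteasome genes none was called (limma, 6 at an unadjusted p under 0.05), 19 were positive and the median was 0.40. The proteasome activator psme1 came closest, at 5.72, 5.60 and 7.24 against 4.74, 3.72 and 3.98 (log2 fold change 2.04, adjusted p = 0.0601). The interferon response list had 1 rise among 30, irf9, a transcription factor of the interferon signal (2.15-fold, adjusted p = 0.0135, 5.50, 4.97 and 5.35 against 4.59, 4.03 and 3.88). The call of irf9 ended without 4 of the 6 arrays. The list median was 0.16 (0.08 without unlesioned replicate 1, and at most 0.22 when 1 array was left out). It reached 0.58 over all alternatives, which include the fit without the genes of lowest level. Of the 30, 15 were under the table median in both groups.

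**Figure D2:**
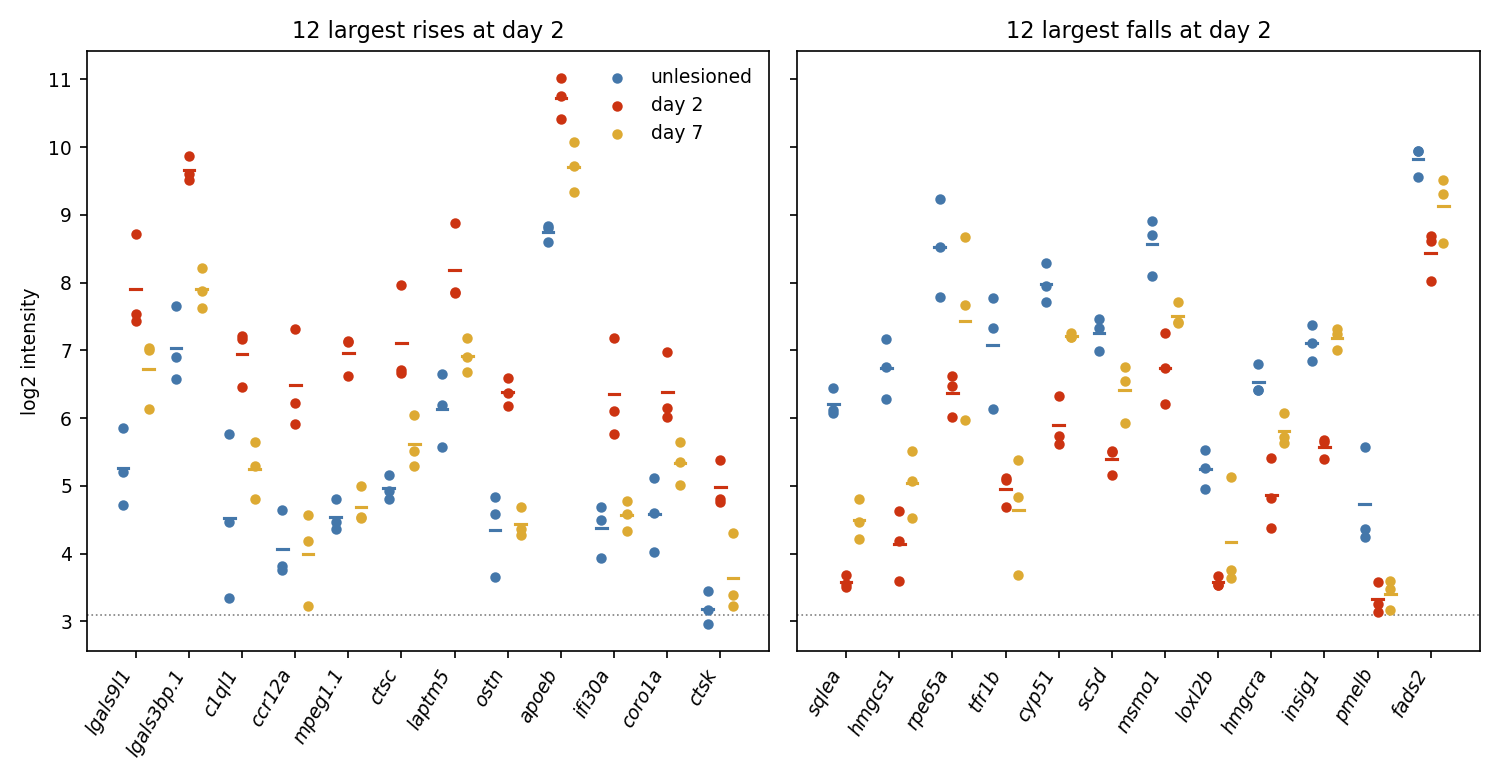
Log2 intensity on each dorsal SVZ array for the 12 largest rises (left) and the 12 largest falls (right). Points are single arrays, short bars the group means, and the dotted line the table median of 3.092. Only called genes without overlap between the red day 2 points and the blue unlesioned points were taken. For most rises the yellow day 7 points lie nearer to the unlesioned ones.

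A few actin regulators, among them genes that build the branched actin of crawling and engulfing cells, also rose. On a list of 40 actin regulators 5 rose, beside 0.182% of all genes, none fell and 35 were not called. Of the 40, 10 had a negative sign, and the median was 0.18. It was 0.37 without day 2 replicate 2 and 0.12 without day 2 replicate 3. The subunit arpc1b of the branching complex was at 6.29, 6.56 and 6.91 against 5.03, 4.95 and 4.92 (log2 fold change 1.62, SE 0.22, 3.08-fold, adjusted p = 0.000695). The monomer-binding gene pfn1 was at 10.16, 10.42 and 10.30 against 9.06, 9.06 and 8.51, a 2.67-fold rise (log2 fold change 1.42, SE 0.22, adjusted p = 0.0022). The third was nckap1l, a subunit of the branching activator in blood cells (3.06-fold, adjusted p = 0.0234), and the others were coro1a and lcp1 from the phagocyte list. The call of nckap1l ended without 5 of the 6 arrays.

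Further rises outside these groups were the adhesion gene pecam1a (2.50-fold, adjusted p = 0.0247), the immune receptor adaptor grap2b (2.69-fold, adjusted p = 0.0266) and tcima (2.75-fold, adjusted p = 0.021). In the vascular list pecam1a was the single call among 35 endothelial and mural genes, whose median was -0.01. The unnamed genes si:dkey-27i16.2 (3.49-fold, adjusted p = 0.0454), si:cabz01074946.1 (3.05-fold, adjusted p = 0.0454) and zgc:110239 (2.38-fold, adjusted p = 0.0122) rose as well. LOC100536946 rose 2.47-fold (adjusted p = 0.0423) from an unlesioned mean of 2.23, under the table median, so that its fold is not exact. The call of si:dkey-27i16.2 ended whichever of the 6 arrays was left out. Those of pecam1a, grap2b, tcima, si:cabz01074946.1 and LOC100536946 each ended without 4 or more, and that of zgc:110239 without day 2 replicate 3 or unlesioned replicate 2.

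Cell division genes were slightly higher and mostly not called. The DNA-untangling enzyme top2a, made in dividing cells, was at 5.34, 4.93 and 5.92 against 4.53, 4.11 and 4.44 (log2 fold change 1.04, SE 0.22, 2.06-fold, adjusted p = 0.0439). It was the single call among 83 genes of DNA replication and mitosis, and the call ended without 5 of the 6 arrays (adjusted p up to 0.381). Of the 83, 78 had a positive sign, beside 52.8% of all genes, and the median was 0.35 (0.28 without day 2 replicate 3). Mitosis genes had a median of 0.44 over 46 and replication genes of 0.27 over 37, and without day 2 replicate 3 these were 0.29 and 0.18. The proliferation marker MKI67 was at 4.92, 4.87 and 6.25 against 4.66, 3.57 and 4.48, where day 2 replicate 3 stood above the rest (log2 fold change 1.11, adjusted p = 0.229). The replication clamp pcna had a log2 fold change of 0.55 (adjusted p = 0.665).

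Markers of blood were measured beside these changes. Of 15 erythrocyte and thrombocyte genes none was called (limma, 4 at an unadjusted p under 0.05) and 13 were positive, with a median of 0.52. That median was 0.32 without day 2 replicate 3 and 0.74 without day 2 replicate 1. Their mean level was 3.96, 3.96 and 4.49 at day 2 and 3.75, 3.63 and 3.55 without a lesion, with day 2 replicate 3 again the highest. The erythroid nuclear gene hemgn had a log2 fold change of 1.42 (adjusted p = 0.131) and the heme synthesis gene alas2 of 1.08 (adjusted p = 0.17). The part of blood content in the rises was not tested.

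The gene ostn, which encodes a small secreted peptide that binds the clearance receptor of natriuretic peptides, is no gene of phagocytes. It was at 6.18, 6.37 and 6.59 at day 2 and at 4.58, 3.65 and 4.83 without a lesion, and returned to 4.27, 4.36 and 4.69 at day 7. The rise was 4.08-fold (log2 fold change 2.03, SE 0.27, adjusted p = 0.000556), and it was called whichever array was left out (adjusted p up to 0.00765). In the other regions ostn lay between 3.13 and 4.21 on all 17 arrays, with a day 2 log2 fold change of 0.01 in the parenchyma and 0.10 in the medial zone. The difference of the lesion effect was 2.02 against the parenchyma (adjusted p = 0.0909) and 1.93 against the medial zone (adjusted p = 0.49), so neither passed the test.

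The cholesterol pathway was the largest group among the falls. Of 23 measured enzyme genes of the mevalonate and sterol steps, 8 fell, beside 0.0883% of all genes, none rose and 15 were not called. A negative sign was found in 20, beside 9081 of all 19260 genes, and the median was -0.71. The groups did not overlap for 15 of the 23 (65.2%), beside 14.0% of all genes. The mean level of the 23 was 4.47, 4.43 and 4.71 at day 2 and 5.25, 5.48 and 5.60 without a lesion, with no overlap between the groups. That median went from -0.89 to -0.55 when single unlesioned arrays were left out. For the 14 genes of the sterol steps alone the median was -0.75, and -0.59 without unlesioned replicate 2.

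At the entry to the pathway, hmgcs1 makes the precursor that hmgcra, the rate-limiting reductase, turns into mevalonate. The level of hmgcs1 was 4.19, 3.60 and 4.63 at day 2 and 6.28, 7.17 and 6.75 without a lesion, a 6.04-fold fall (log2 fold change -2.59, SE 0.33, adjusted p = 0.00022). The level of hmgcra was 4.82, 4.38 and 5.41 against 6.41, 6.41 and 6.80, a 3.17-fold fall (log2 fold change -1.67, SE 0.25, adjusted p = 0.00216). Its paralog hmgcrb had a log2 fold change of -0.13 and was not called. The acetyl-CoA condensing gene acat2 (-0.71) and the genes mvk (-0.51), pmvk (-0.29), mvda (-0.67), idi1 (-0.79) and fdps (-0.67), which carry mevalonate to farnesyl pyrophosphate, all had negative log2 fold changes that were not called.

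The first steps after squalene held the largest fall among the called genes. Squalene is made by fdft1 (log2 fold change -0.72, not called) and oxidized by squalene epoxidase. The epoxidase gene sqlea was at 3.55, 3.69 and 3.51 at day 2 and at 6.12, 6.07 and 6.44 without a lesion, so that the arrays of each group lay within 0.4 of each other and the groups more than 2 apart. It fell 6.16-fold (log2 fold change -2.62, SE 0.39, adjusted p = 0.00176), whereas the paralog sqleb had a log2 fold change of 0.16. The cyclase lss, which closes the sterol rings, was at 2.54, 2.74 and 2.92 against 3.66, 3.86 and 3.92 (log2 fold change -1.08, SE 0.18, adjusted p = 0.00597). Its day 2 arrays were under the table median, so the fold of 2.12 is not exact, and the call ended only without unlesioned replicate 3 (adjusted p = 0.0544).

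Enzymes that trim lanosterol followed. The lanosterol demethylase cyp51 was at 5.62, 5.74 and 6.33 against 7.72, 7.95 and 8.29, and fell 4.25-fold with the smallest adjusted p of the comparison (log2 fold change -2.09, SE 0.21, adjusted p = 2.2e-05). The sterol methyl oxidase msmo1 was at 7.26, 6.21 and 6.74 against 8.10, 8.91 and 8.71, a 3.58-fold fall (log2 fold change -1.84, SE 0.30, adjusted p = 0.00464). The desaturase sc5d, near the end of the pathway, was at 5.50, 5.16 and 5.52 against 6.99, 7.33 and 7.46, a 3.66-fold fall (log2 fold change -1.87, SE 0.24, adjusted p = 0.00022). The ketosteroid reductase hsd17b7 fell 2.47-fold (adjusted p = 0.04), while its second probe set, at a mean of 2.39 and so under the table median, gave -0.23. The call of hsd17b7 ended without 5 of the 6 arrays. Of the rest, ebp (-0.79), tm7sf2 (-0.45), nsdhl (-0.41) and dhcr7 (-0.25) were negative, and erg28 (0.01) and lbr (0.31), which also holds the nuclear lamina, were positive, all without a call.

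**Figure D3:**
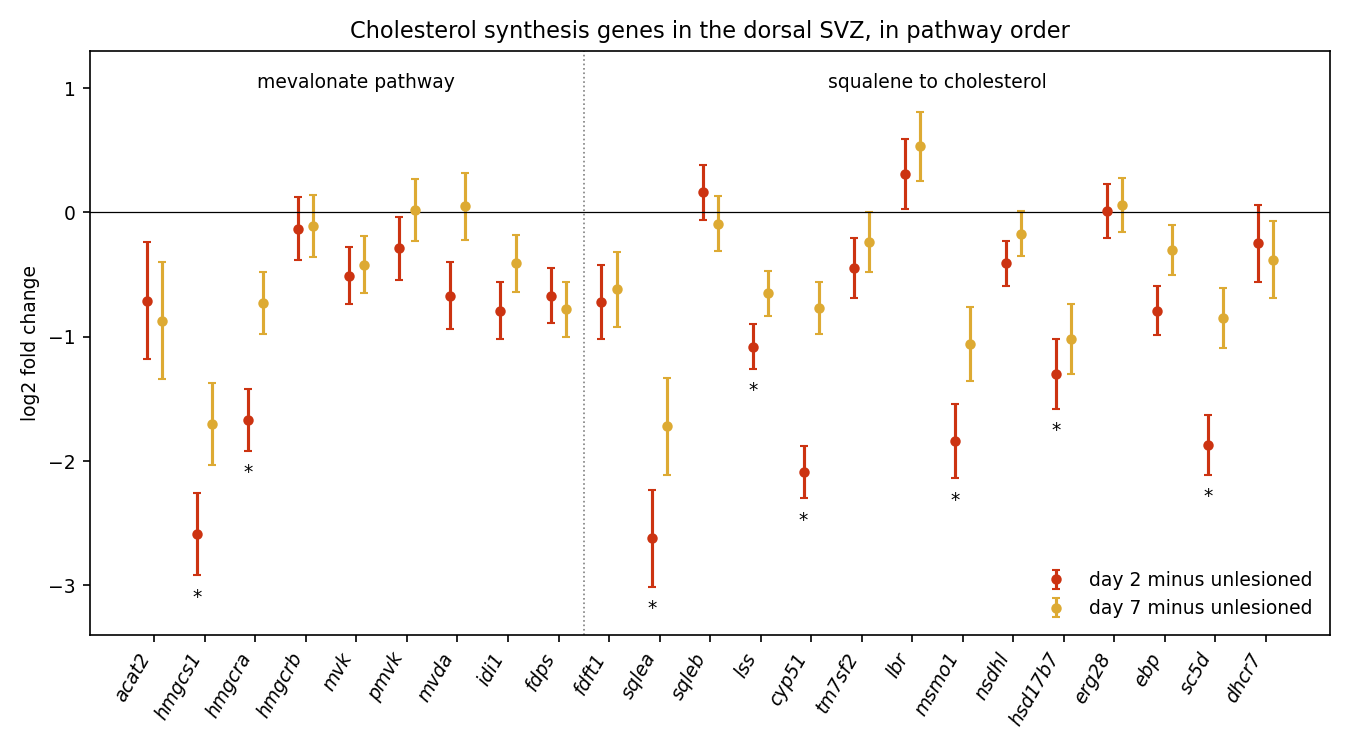
Log2 fold change of the 23 cholesterol synthesis genes in pathway order in the dorsal SVZ, for day 2 minus unlesioned (red) and day 7 minus unlesioned (yellow). Points are fitted values, bars are 1 SE either way, and stars mark the 8 genes called at day 2. The paralogs hmgcrb and sqleb lie near 0 beside hmgcra at -1.67 and sqlea at -2.62.

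The sensing arm of the pathway moved in 1 gene. The sterol sensor insig1 was at 5.64, 5.40 and 5.68 against 7.11, 6.84 and 7.38 and fell 2.90-fold (log2 fold change -1.54, SE 0.29, adjusted p = 0.0191). Its second probe set had a log2 fold change of -0.35 at a mean level of 3.43, and the call ended without 5 of the 6 arrays (adjusted p up to 0.144). The regulator srebf2 was at 5.91, 5.90 and 6.37 against 6.77, 6.84 and 7.09, without overlap but not called (log2 fold change -0.84, adjusted p = 0.246). The related factor srebf1 (0.02) and the escort protein scap (-0.10) had log2 fold changes near 0. The list of 12 sensing and uptake genes had 1 call and a median of -0.04.

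Lipid handling outside synthesis was split. On a list of 17 genes of sterol efflux and lipoproteins, apoeb rose and the endothelial lipase lipg, which acts on lipoproteins, fell 2.58-fold (adjusted p = 0.0246). The call of lipg ended without 5 of the 6 arrays (adjusted p up to 0.231). The cholesterol exporter abca1a, which loads apolipoproteins, had a log2 fold change of 0.86 that was not called (6.72, 6.78 and 7.19 against 6.07, 6.04 and 6.01, adjusted p = 0.134). Among 17 genes of fatty acid synthesis the desaturase fads2, needed for long polyunsaturated fatty acids, was the single fall.

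The level of fads2 was 8.69, 8.61 and 8.02 against 9.56, 9.95 and 9.95 (log2 fold change -1.38, SE 0.25, 2.61-fold, adjusted p = 0.0135). Its call ended without day 2 replicate 3, unlesioned replicate 2 or unlesioned replicate 3 (adjusted p up to 0.135). The citrate lyase aclya (-0.90), the carboxylase acaca (-0.60), the elongase elovl2 (-0.63) and the desaturase scdb (-0.43) had negative log2 fold changes without a call and without overlap between groups. The list had 13 negative members and a median of -0.22, which was -0.36 without day 2 replicate 3.

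Clock genes were measured beside these falls. Of 40 circadian clock genes none was called (limma, 12 at an unadjusted p under 0.05). Beside 9081 negative signs among all 19260 genes, 36 of the 40 were negative, and their median was -0.42. Their mean level was 6.04 to 6.16 on the day 2 arrays and 6.47 to 6.60 on the unlesioned ones, without overlap, and 6.16, 6.62 and 6.23 at day 7. The clock repressor cry1b had a log2 fold change of -1.42 (adjusted p = 0.307), and the nuclear receptor nr1d4a of -1.16 (adjusted p = 0.353). Of 40 glucocorticoid-responsive genes none was called (5 unadjusted), with a median of -0.17 (-0.09 without unlesioned replicate 2). Within that list klf9, a factor that glucocorticoids induce, ranged from 4.77 to 6.93 at day 2 and from 7.38 to 8.38 without a lesion (log2 fold change -2.11, SE 1.03, adjusted p = 0.734). The labels give no hour of sampling, and the part of time of day in the falls was not tested.

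Iron uptake had a fall in the transferrin receptor gene tfr1b, at 4.69, 5.08 and 5.11 against 7.33, 6.13 and 7.78. It fell 4.34-fold (log2 fold change -2.12, SE 0.43, adjusted p = 0.0292), a second probe set gave -1.76, and the call ended without 5 of the 6 arrays (adjusted p up to 0.259). It was the single call among 26 iron genes, whose median was 0.18, and 0.05 without unlesioned replicate 2. The matrix cross-linker loxl2b was at 3.54, 3.53 and 3.67 against 5.27, 5.53 and 4.96, a 3.2-fold fall (log2 fold change -1.68, SE 0.33, adjusted p = 0.0266) and the single call among 66 matrix genes with a median of 0.14. Its call ended without any of the 6 arrays (adjusted p up to 0.168). The sorting gene vps37bb of the endosomal ESCRT machinery fell 2.58-fold (adjusted p = 0.0439), and its call ended without 5 of the 6 arrays.

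The other 3 falls were genes of the retinal pigment epithelium and pigment cells, and they are on the pineal and photoreceptor list that was drawn up after the values had been seen. The retinoid isomerase rpe65a was at 6.48, 6.62 and 6.01 at day 2 and at 7.79, 9.24 and 8.53 without a lesion, with unlesioned replicate 2 the highest. It fell 4.44-fold (log2 fold change -2.15, SE 0.43, adjusted p = 0.0266), and without unlesioned replicate 2 the value was -1.79 and not called (adjusted p = 0.232). The call of rpe65a ended without 5 of the 6 arrays, that one among them. On the 17 arrays of the other regions rpe65a was between 2.72 and 3.92, below all 6 arrays of this comparison.

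The opsin-like gene rrh was at 3.87, 3.60 and 4.43 against 5.25, 5.58 and 5.07 (log2 fold change -1.34, SE 0.24, adjusted p = 0.0106), and without unlesioned replicate 2 it was -1.20 and not called (adjusted p = 0.0935). Its call also ended without day 2 replicate 1 and without day 2 replicate 2. The melanosome fibril gene pmelb was at 3.58, 3.26 and 3.14 against 5.57, 4.36 and 4.25, a 2.63-fold fall (log2 fold change -1.40, SE 0.25, adjusted p = 0.0106). It stayed called without unlesioned replicate 2 (-1.58, adjusted p = 0.0107) and lost the call only without day 2 replicate 3 (adjusted p = 0.109). Its highest array was unlesioned replicate 1, on which gngt1 was also above its range in the other regions. The other 33 members of the list of 36 were not called, and its median of -0.97 became 0.03 without unlesioned replicate 2. The part of tissue from outside the ventricular layer in these 3 falls was not tested.

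Stem cell and neuronal genes gave no call. Among 32 radial glia genes none passed (limma, 4 at an unadjusted p under 0.05) and the median was 0.02. The filament gene gfap was at 7.11, 7.02 and 7.94 at day 2 and at 7.08, 7.50 and 7.31 without a lesion, and fabp7a, a fatty acid binding protein of radial glia, at 11.20, 11.30 and 11.36 against 11.47, 11.48 and 11.29. Both sets of arrays overlapped, with log2 fold changes of 0.06 (SE 0.35, adjusted p = 0.996) and -0.13. The estrogen-making aromatase cyp19a1b of radial glia was at 9.06, 7.70 and 8.67 against 9.44, 9.62 and 8.99 (log2 fold change -0.87, adjusted p = 0.283).

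Among 36 Notch pathway and her genes none was called (1 unadjusted, median -0.09), and among 34 genes of neurogenic progenitors and newborn neurons none (4 unadjusted, median -0.08). The neuronal differentiation factor sox11b was at 6.12, 6.70 and 5.84 against 8.01, 7.28 and 7.55, without overlap and not called (log2 fold change -1.39, adjusted p = 0.223). The proneural factor ascl1b had a log2 fold change of 0.63 (adjusted p = 0.265). Mature neuron genes had no call among 32 (2 unadjusted) and a median of -0.07, with 25 negative. A missing call at this number of arrays does not show that these genes were the same in both groups.

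Of the remaining lists, none of 52 regeneration factors (4 unadjusted, median 0.01), 50 stress and immediate early genes (4 unadjusted, median 0.15, and 0.03 without day 2 replicate 2), 52 glycolysis and hypoxia genes (7 unadjusted, median -0.06), 41 cilia and ependyma genes (5 unadjusted, median 0.17, and 0.06 without day 2 replicate 3), 15 oligodendrocyte genes (0 unadjusted, median 0.05) and 62 respiratory chain genes (1 unadjusted) was called. The study's title names the aryl hydrocarbon receptor (AhR), a ligand-activated transcription factor. Of 28 genes of its pathway none was called (2 unadjusted, median 0.06), and the receptor gene ahr2 had a log2 fold change of 0.23. Under the table median in both groups were 10 of the 28, beside 4933 of all 19260 genes. The kynurenine pathway enzyme haao was nearest, at 4.50, 4.51 and 4.14 against 3.70, 3.23 and 3.34 (log2 fold change 0.96, SE 0.22, adjusted p = 0.0867).

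**Figure D4:**
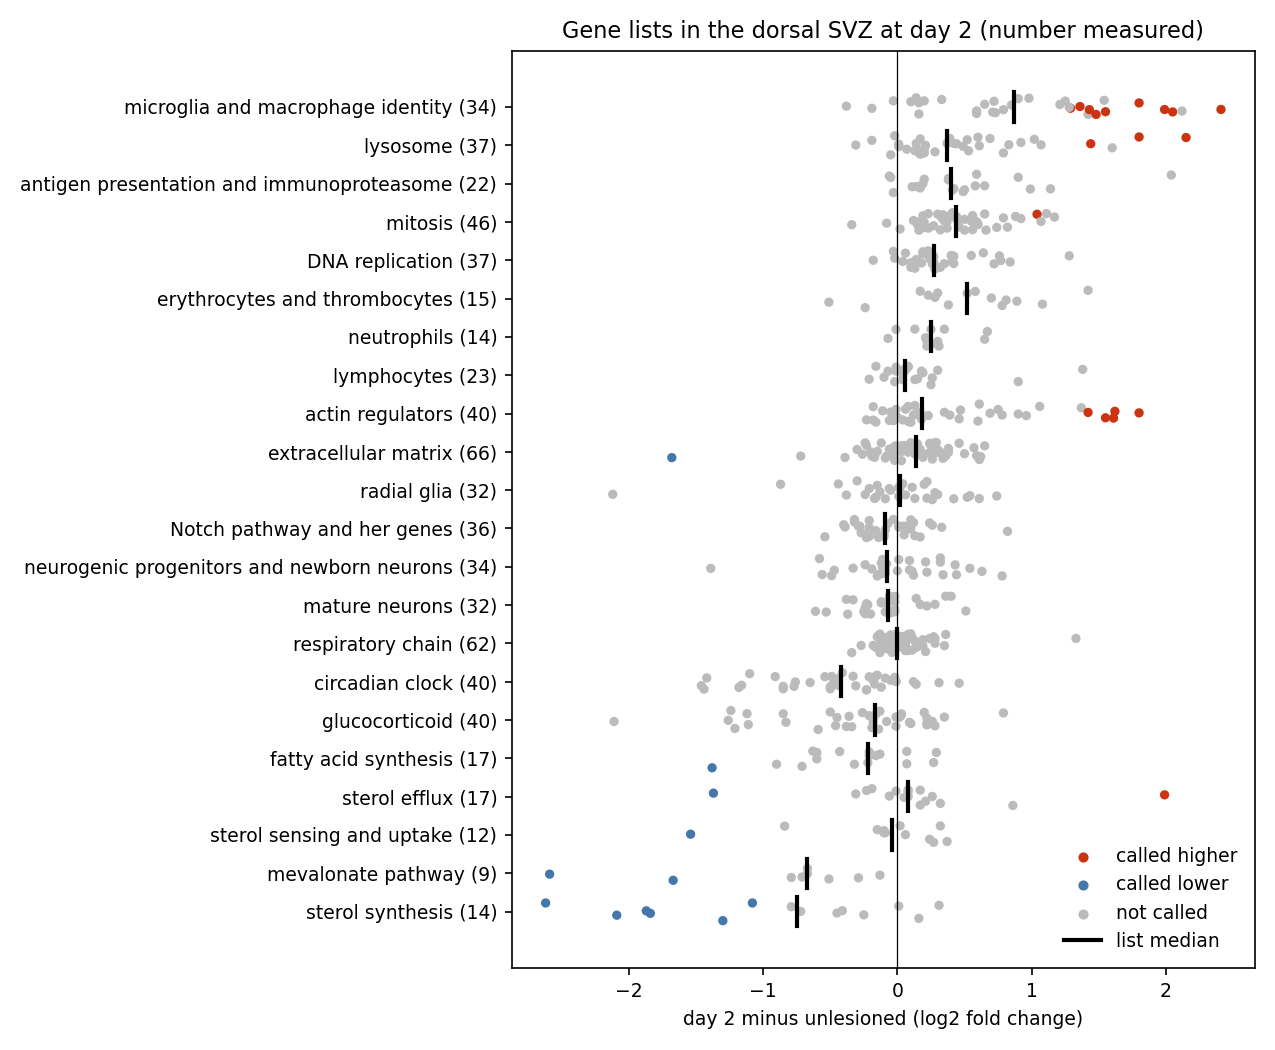
Log2 fold change (day 2 minus unlesioned, horizontal axis) of each measured member of 22 gene lists, with the number measured in brackets. Red and blue points are genes called higher and lower, grey points were not called, and black bars are list medians. The phagocyte list has a median of 0.87 and the mevalonate and sterol synthesis lists have medians of -0.67 and -0.75, while the radial glia, Notch and neuronal lists centre near 0.

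Day 7 values stand beside those of day 2, with the reservation that the day 7 comparisons share arrays with the one described here. No gene was called at day 7 against unlesioned tissue (limma, 0.00% of genes, 858 at an unadjusted p under 0.05), and 10 were called at day 7 against day 2 (0.0519%). The day 7 mean lay between the other group means for 31 of the 35 rises and 15 of the 17 falls, and was closer to the unlesioned mean for 30 and 8 of them. These genes were chosen for their gap between day 2 and unlesioned arrays, which by itself favours a day 7 mean in between. The share over all genes was not counted. The rises had a median log2 fold change of 0.45 at day 7 against unlesioned, and the falls of -0.85.

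Among the rises mpeg1.1 was at 4.54, 4.52 and 5.0 at day 7, within or close to its unlesioned range (day 7 minus day 2 -2.27, adjusted p = 0.00185). The other rises called lower at day 7 than at day 2 were ostn, arpc1b, ccr12a, lgals3bp.1 and nckap1l. Some lasted in part: apoeb was at 9.34, 10.07 and 9.72 and lgals9l1 at 6.13, 7.00 and 7.04, above their unlesioned arrays and not called at day 7 against day 2.

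The cholesterol genes differed among themselves at day 7. The sensor insig1 was at 7.00, 7.32 and 7.24, inside its unlesioned range (day 7 minus day 2 1.62, adjusted p = 0.0348), and cyp51 at 7.20, 7.19 and 7.25 was partly back (1.32, adjusted p = 0.0125). In contrast sqlea, at 4.81, 4.46 and 4.21, and hmgcs1, at 5.51, 5.07 and 4.53, were still below every unlesioned array, by 1.72 and 1.70 on the log2 scale in the fit, without a call. The receptor tfr1b was at 3.69, 4.84 and 5.38 at day 7 and overlapped its day 2 arrays.

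The same rises were mostly larger in the dorsal parenchyma. Of the 35 rises 29 were also called higher there, where 1.70% of genes were, and 23 in the medial zone, where 0.379% were. The median log2 fold change of the 35 was 1.48 in the dorsal SVZ, 2.55 in the parenchyma and 1.59 in the medial zone, and 28 of them had the larger value in the parenchyma. Among the phagocyte markers 24 of 34 were called in the parenchyma and 11 in the medial zone, with medians of 2.11 and 1.05 beside 0.87.

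The difference between the lesion effects was called for 10 genes against the parenchyma (0.0519%). Of the 52 genes this held for arpc1b, which rose less in the dorsal SVZ (log2 difference -1.97, adjusted p = 0.0293), and for cyp51, which fell there and hardly moved in the parenchyma (-1.76, adjusted p = 0.0385). The count of 10 was 0 without parenchyma day 2 replicate 3, and without parenchyma unlesioned replicate 1 it was 2, both higher in the dorsal SVZ. The calls of arpc1b and cyp51 were thus lost without either of these arrays. No gene was called against the medial zone (limma, 0.00%, 606 at an unadjusted p under 0.05).

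The rises that were not called in either other region numbered 5: ostn, desi1b, prdx1, plscr3b and ppfibp2a. The peroxide-reducing enzyme prdx1 was at 5.44, 5.91 and 5.80 against 4.33, 4.38 and 4.43 in the dorsal SVZ (2.52-fold, adjusted p = 0.0439), with log2 fold changes of -0.32 in the parenchyma and 0.78 in the medial zone. The isopeptidase desi1b was at 6.14, 5.49 and 6.52 against 4.52, 4.70 and 4.61 (2.72-fold, adjusted p = 0.0234), with 0.41 and 0.35 elsewhere, and its 2 probe sets held equal values. The scramblase family gene plscr3b and the liprin gene ppfibp2a rose 1.98-fold and 1.93-fold (adjusted p = 0.0307 and 0.0361), with values between -0.26 and 0.30 elsewhere. The call of prdx1 ended whichever of the 6 arrays was left out (adjusted p up to 0.206). Those of desi1b, plscr3b and ppfibp2a each ended without 5 of the 6. For none of the 5 rises did the difference between regions pass the test.

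The falls were chosen by their dorsal SVZ values, and beside those stand the values of the other regions. Of the 17, insig1 and fads2 were also called lower in the parenchyma, where 0.332% of genes were. In the medial zone sqlea, cyp51, msmo1, hmgcra and insig1 were, where 0.114% of genes were. The median of the 17 was -1.67 in the dorsal SVZ, -0.36 in the parenchyma and -1.09 in the medial zone, and none had the larger fall in the parenchyma.

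Over the 23 cholesterol genes the medians were -0.71, -0.17 and -0.46 in the same order. In the parenchyma none of the 23 was called (limma, 1 at an unadjusted p under 0.05) and in the medial zone 4 were. For sqlea the log2 fold change was 0.20 in the parenchyma (adjusted p = 0.92) and -2.28 in the medial zone (adjusted p = 0.00917), and its difference between dorsal SVZ and parenchyma, -2.82, missed the threshold (adjusted p = 0.0927). For hmgcs1 the values were -0.36 and -0.84, with a difference from the parenchyma of -2.23 (adjusted p = 0.115).

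**Figure D5:**
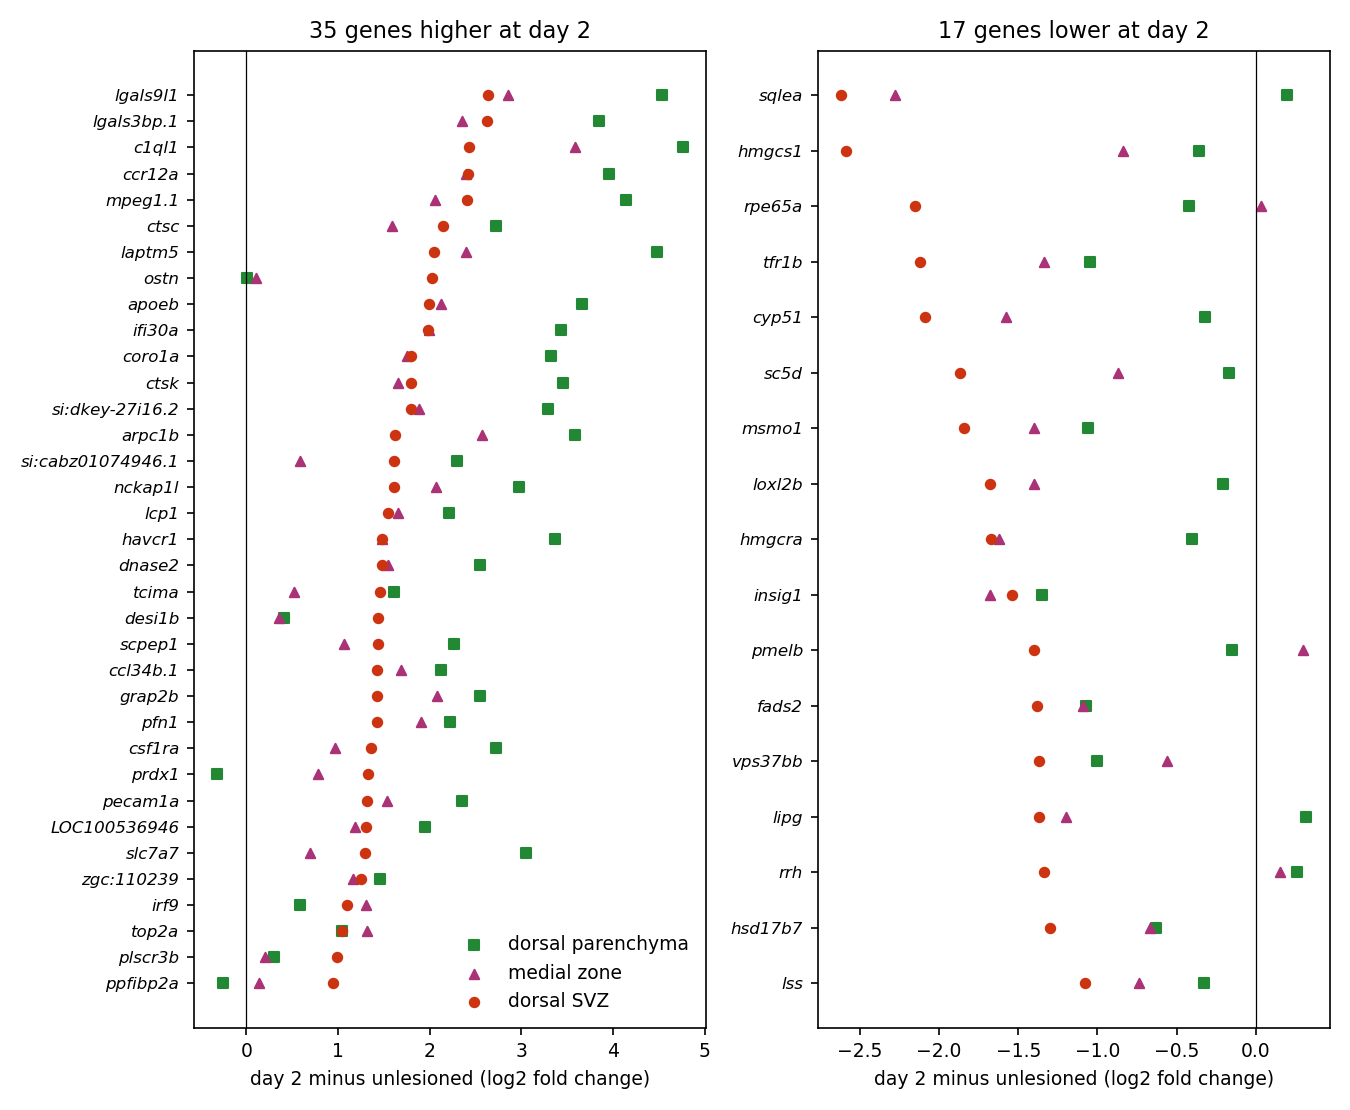
Day 2 minus unlesioned log2 fold change of the 35 rises (left) and 17 falls (right) in the dorsal SVZ (red circles), dorsal parenchyma (green squares) and medial zone (purple triangles), ordered by the dorsal SVZ value. Most rises have the green square farthest to the right, ostn has both other regions near 0, and the cholesterol genes have the parenchyma values nearer 0 than the dorsal SVZ values.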

How the data were processed

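RNA was amplified and labelled with Ovation PicoSL WTA V2 and Encore Biotin kits, per the labels' protocols. The authors deposited RMA values on the log2 scale, and the submitters' processing notes name Affymetrix Expression Console 1.2. RMA subtracts background, sets the arrays to a common distribution and summarises the probes of a set. The table held 75212 probe sets on 26 arrays, with array medians of 3.014 to 3.212. The number of arrays limits the precision, and scanner files were not used here. Of the probe sets 20806 carried exactly 1 symbol, 855 several and 53551 none. Where a gene had several, the probe set of highest mean on the 26 arrays was used, which gave 19260 genes, 1365 of them with more than 1 probe set.

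A model with 1 mean for each of the 9 groups was estimated on all arrays (R 4.3.3, limma 3.58.1, 17 residual degrees of freedom), two-sided, with Benjamini-Hochberg adjustment over all genes. Each adjusted p given is from limma. Simulated data with known differences served as a test of the fit. Summaries were made in pandas 2.3.3 and numpy 2.4.6 (python 3.11.15), and plots in matplotlib 3.10.9. Of 1351 names on 36 lists, 1183 were measured. The comparison, its members and the lists were chosen with earlier results of these data known. Named genes were any called gene, up to 6 members of smallest p in a list and 18 genes always looked up, of which ldlra was not measured. Values on every array were due for the 12 largest rises and falls among called genes without overlap and with a group mean above 3.092. Members of the cholesterol pathway and its regulators are named beyond this rule to give the pathway in order, and other names beyond it are marked as chosen after their values were seen. Replicate numbers were not used as pairs, and the labels do not say what equal numbers share. Deviations of same-numbered day 2 and unlesioned arrays correlated at -0.042 to 0.011, and of different-numbered ones at -0.036 to 0.064. With 3 arrays in each group these values cannot exclude a shared batch.

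The alternatives were array weights, removal of the genes of lowest mean level, every probe set or the mean of a gene's probe sets, quantile normalization again, subtraction of array medians, a trended robust prior, fits to fewer groups, the replicate number as a block, a fold of at least 2, leaving out each array and, added after the data were seen, all 75212 probe sets.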

Additional observations from a re-analysis of the deposited data

Results flagged for a closer look

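The test of the difference between lesion effects separated dorsal SVZ and parenchyma at day 2 in 10 genes, all lower in the dorsal SVZ (log2 difference of the effects, limma adjusted p under 0.05). They were ms4a17a.10 (-2.63), cst14b.1 (-2.58), arhgap27 (-2.44), tgm2l (-2.41), the injury-induced factor atf3 (-2.24), the actin regulator wasf2 (-2.20), the tubulin tubb5 (-1.97), arpc1b (-1.97), cyp51 (-1.76) and the potassium channel kcna3a (-1.41). Of these, arpc1b and cyp51 were called in the dorsal SVZ itself. In the dorsal SVZ the log2 fold change was -0.42 for atf3 (adjusted p = 0.892) and -0.47 for tubb5 (adjusted p = 0.623), neither called. None of the 10 calls held without parenchyma day 2 replicate 3, and none without parenchyma unlesioned replicate 1.

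Over the whole table of 75212 probe sets 31 were called, 18 higher and 13 lower, and 11 of them carried no single gene symbol. Those 11 enter no comparison of the report and are not named here.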

How the results depend on the processing

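For dorsal SVZ day 2 versus unlesioned the 52 calls became 85 with array quality weights (64 higher, 21 lower), 31 in a fit of the compared groups only, 31 over all probe sets (18 higher, 13 lower) and 31 with the replicate number as a fixed replicate block (20 higher, 11 lower). As a random block the replicate number gave 45. The labels do not say what equal numbers share, so what the block removes is not known. Calls lost under the block do not by themselves give the size of an effect. Leaving out 1 array gave 14 to 42 calls. The other alternatives gave 44 to 57. None of the 52 genes changed sign in 777 alternative values, of which 261 lost the call. Since the 2 groups did not overlap in these genes, leaving out an array could not have turned a sign. Called differences from the parenchyma numbered 10, and 6 with weights, 3 after quantile normalization again, 4 in the compared groups only, 0 with the fixed block and 0 to 29 without 1 array (0 without parenchyma day 2 replicate 3). Without parenchyma unlesioned replicate 1 there were 2, both higher in the dorsal SVZ. Called differences from the medial zone numbered 0, and 0 to 10 without 1 array (10 without medial unlesioned replicate 1). Day 7 against day 2 had 10 calls, and 4 in the dorsal SVZ arrays only, 4 in the compared groups only, 3 with the fixed block and 4 to 6 without 1 array. Signs turned for uncalled values near 0. For gfap it was -0.01 after subtraction of array medians, and -0.23 (without day 2 replicate 3) to 0.23 when 1 array was left out, with -0.05 without unlesioned replicate 1. For il1b it was -0.14 (without day 2 replicate 3) to 0.28. Without the genes of lowest level the median of the list endothelial and mural was 0.041. The median of the list chemokines was -0.037 without those genes, -0.008 after quantile normalization, -0.039 after array medians and -0.050 (without day 2 replicate 3) to 0.059 without 1 array. Without 1 array the median of the list sterol sensing and uptake was -0.096 to 0.090, with 0.081 without day 2 replicate 3, the median of the list retinoid was -0.068 to 0.046, and the median of the list pineal and photoreceptor was -1.446 to 0.027, the last 2 highs both without unlesioned replicate 2. The cause of these shifts was not tested.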

Other observations

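A few genes just short of the threshold were chosen after their values were seen and are given as values only. The steroid-making dehydrogenase hsd3b1 was at 7.25, 6.67 and 4.97 at day 2 and at 3.04, 4.34 and 4.63 without a lesion, with no overlap between the groups (log2 fold change 2.29, SE 0.51, adjusted p = 0.0601). On the 17 arrays of the other regions it was between 2.56 and 3.36, around the table median. The thyroid hormone binding gene crym was at 3.76, 3.63 and 3.26 against 2.73, 2.71 and 2.54 (log2 fold change 0.89, adjusted p = 0.0509), from an unlesioned mean under the table median. The growth factor tgfb1a was at 4.19, 4.31 and 4.05 against 3.45, 3.13 and 3.22 (log2 fold change 0.92, adjusted p = 0.0942), with log2 fold changes of -0.15 in the parenchyma and -0.18 in the medial zone, and the difference of the lesion effect was not called against the parenchyma (1.06, adjusted p = 0.353) or the medial zone (1.1, adjusted p = 1.0).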
